A study of Mus musculus with 9 samples.

Results

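Oxidative phosphorylation genes were followed in mouse cells, an acute myeloid leukaemia line, after a FLT3-ITD transgene was switched off. FLT3-ITD is a receptor tyrosine kinase made constantly active by an internal tandem duplication. Members were taken by symbol: Nduf genes, the 4 Sdh subunits, Uqcr genes, Cox4 to Cox8 genes, Atp5 genes and the 13 protein-coding genes of the mitochondrial genome, without pseudogenes so marked. The rule found 105 members among 24756 rows of the count table, of which 92 are nuclear and 13 mitochondrially encoded. It used names alone and no measured value. The line was made from mouse foetal liver cells by retroviral transduction with MLL-AF9, expressed all the time from an MSCV vector beside luciferase, and with FLT3-ITD, expressed beside DsRED from a TRE-tight promoter. All groups therefore carry MLL-AF9. In ON, 1 µg/mL doxycycline kept the transgene expressed. In OFF24 and OFF48, the same cells were washed free of doxycycline and grown without it for 24 h and 48 h. No group lost the drug alone, so effects of its removal and of the transgene's loss cannot be told apart. Each group had 3 libraries of 3' ends of polyadenylated RNA (Lexogen QuantSeq). The labels name a single cell line and do not state how its replicates were grown, and the p-values cover no more than library-to-library spread, which may be technical.

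Oxidative phosphorylation couples the transfer of electrons to the making of ATP in the inner mitochondrial membrane. Complex I takes electrons from NADH and complex II from succinate, complex III passes them to cytochrome c, and complex IV hands them to oxygen. The protons pumped by complexes I, III and IV drive ATP synthase, often called complex V. Complex II is built wholly from nuclear genes, whereas the other complexes combine nuclear subunits with subunits translated inside the mitochondrion. In myeloid leukaemia cells the pathway is known as a source of energy and as a drug target.

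Total counts ranged from 1329296 in OFF48 replicate 2 to 4038456 in ON replicate 2. Of all rows, 16962 had a count and 10215 passed the filter on low counts. Levels are given as CPM, counts scaled to library size with TMM factors. Summed CPM of 12 myeloid markers were 2763 to 2884 in ON, 5155 to 5475 in OFF24 and 7671 to 8887 in OFF48. Lymphoid markers summed to at most 6.1 CPM and erythroid markers to at most 1.5 CPM in every library, with Cd8a, Ncr1, Hbb-bs, Hbb-bt, Epor and Alas2 at 0 throughout. Megakaryocyte and mast cell markers summed to 63.3 to 82.3 CPM in ON, 56.9 to 70.6 in OFF24 and 78.8 to 92.2 in OFF48, with Cpa3 and Tpsb2 at 0. Hepatocyte and stromal markers summed to 26.1 to 35.5 CPM in ON, 41.8 to 58.4 in OFF24 and 54.3 to 62.4 in OFF48, with Alb, Ttr and Cdh5 at 0. The myeloid and the hepatocyte and stromal sums thus moved with the groups. Of the 9 hepatocyte and stromal markers only 1 passed the filter on low counts, whereas all 12 myeloid markers did. How single markers moved is not given here, and the part of these sums in the results below was not tested. The transgene's RNA ends in vector sequence and had no row in the table, so its loss was not checked here. In bulk RNA, fewer cells of a type and less RNA per cell cannot be told apart.

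Outside the test were 7 members. Ndufa4l2, Cox6b2, Cox8b and Cox8c had 0 counts in all 9 libraries, where the floor of 3 counts corresponds to 0.737 to 2.25 CPM. Cox4i2 had 2 libraries with 1 count each and Cox7b2 had 3. Cox6a2, the striated muscle form of a complex IV subunit, had 3, 6 and 5 counts in ON, 0 in each OFF24 library, and 0, 1 and 4 in OFF48. All 13 mitochondrially encoded members and 85 nuclear members were tested.

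Across the 98 tested members the most frequent call was a fall at 48 h. At 24 h against ON, 7 members rose and 17 fell (edgeR quasi-likelihood test, Benjamini-Hochberg adjusted p under 0.05), whereas 17.8% of all tested genes rose and 17.4% fell (35.3% in either direction). At 48 h against ON, 3 rose and 46 fell, beside 23.4% and 23.9% of all tested genes (47.4% in either direction). Among the members, rises were 3.06% and falls 46.9% in that comparison, and 7.14% and 17.3% at 24 h. From 24 h to 48 h, 0 rose and 22 fell, beside 9.99% and 11.2% of all genes (21.1% in either direction). No member was higher at 48 h than at 24 h even at an unadjusted p under 0.05, and DESeq2 and limma-voom also called 0. The median log2 change of the members was -0.09 at 24 h and -0.29 at 48 h, and that of all tested genes was 0.03 and 0.01. Both time points were compared with the same ON libraries.

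Counts were also taken by genome. Of the 85 nuclear members, 5 rose and 14 fell at 24 h, and 3 rose and 36 fell at 48 h, with median log2 changes of -0.07 and -0.25. Of the 13 mitochondrially encoded members, 2 rose and 3 fell at 24 h, and 0 rose and 10 fell at 48 h, with medians of -0.24 and -0.82. From 24 h to 48 h, 15 nuclear and 7 mitochondrially encoded members fell. Rises and falls of nuclear members were 5.88% and 16.5% at 24 h, and 3.53% and 42.4% at 48 h. Those of mitochondrially encoded members were 15.4% and 23.1%, then 0% and 76.9%. Falls between the times were 17.6% and 53.8%. Of all tested genes, 17.8% rose and 17.4% fell at 24 h, and 23.4% and 23.9% at 48 h. Between the times 11.2% of them fell. Whether the genomes differed from each other was not tested.

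**Figure D1:**
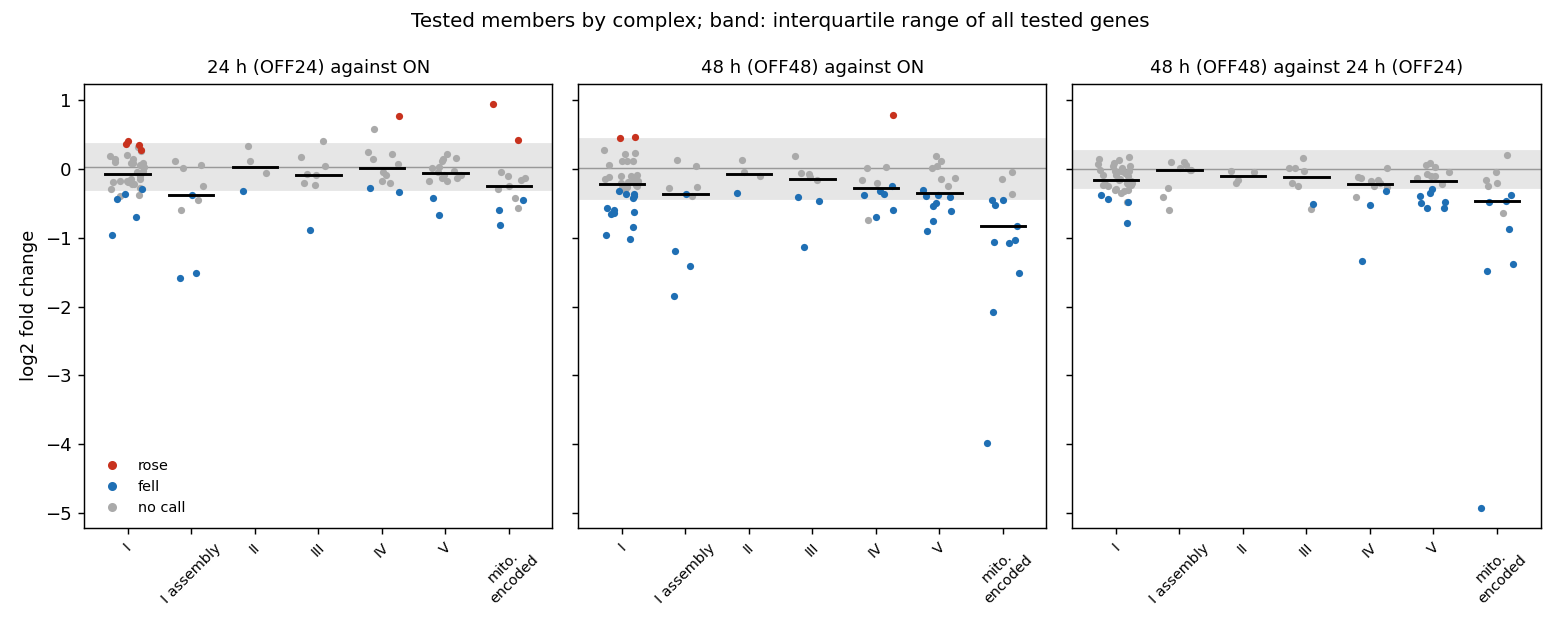
Log2 fold changes of the 98 tested members by complex in the 3 comparisons, with red points for members that rose, blue for members that fell, grey for no call, and a black bar at each median. The grey band spans the interquartile range of all tested genes and the thin grey line is their median. At 48 h the medians of all groups lie below 0, and the mitochondrially encoded points reach down to -3.98.

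The mitochondrial genome makes long transcripts from each strand that are cut, largely at tRNA genes, into messages. ND6 is the only protein-coding gene read from the light strand. The other 12 lie on the heavy-strand transcript. Several genes overlap, and a count of 3' ends can then touch a neighbour. The last 60 bases of 4 annotated transcripts (GENCODE M21, GRCm38, mitochondrial chromosome) are shown because their log2 changes from 24 h to 48 h were the largest of the 13 and because neighbours share these bases. Capitals mark bases that belong to a second gene: ATP6 on the same strand in ATP8, ND4 on the same strand in ND4L, and the opposite gene in ND5 and ND6.
ATP8, 7910 to 7969, plus strand: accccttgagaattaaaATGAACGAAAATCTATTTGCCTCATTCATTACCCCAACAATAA
ND4L, 10114 to 10173, plus strand: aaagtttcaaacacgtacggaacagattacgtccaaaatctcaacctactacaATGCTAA
ND5, 13506 to 13565, plus strand: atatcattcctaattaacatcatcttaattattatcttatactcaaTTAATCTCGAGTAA
ND6, 13552 to 13611, minus strand: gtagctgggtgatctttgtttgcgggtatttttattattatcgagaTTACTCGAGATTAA
Of the last 60 bases, ATP8 shares 43 with ATP6 and ND4L shares 7 with ND4, so a read there could have been counted for either gene. The annotated ends of ATP8 and ND4L lie inside ATP6 and ND4. Whether the ATP8 and ND4L rows count messages separate from those of ATP6 and ND4 was not tested. The falls given below for ATP8 and ND4L are therefore falls of these rows and need not be those of separate messages. The annotated ends of ND5 and ND6 overlap on opposite strands over 14 bases. Whether the counting used strand is not given in the sources used here, and without strand reads of this overlap cannot be told apart. Whether ND5 RNA runs past its annotated end, opposite more of ND6, was not checked, so the stretch affected may be longer. ND6 had no run of A longer than 3 bases, whereas the longest runs in the other 12 genes were 4 to 8 bases. ND6 holds 28.1% G and 6.0% C on its own strand.

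ND6 encodes a membrane subunit of complex I and lies at 13552 to 14070 on the minus strand of the mitochondrial chromosome. It had 66.1, 56.7 and 60.8 CPM in ON, 117, 111 and 127 CPM in OFF24, and 4.03, 1.5 and 4.67 CPM in OFF48. The 3 groups did not overlap, with OFF24 highest and OFF48 lowest. The OFF48 values rest on 12, 2 and 16 counts, against 259, 231 and 170 in ON and 279, 353 and 428 in OFF24. ND6 rose by 0.95 ± 0.12 (SE) on the log2 scale at 24 h (edgeR adjusted p = 7.41e-06). It then fell by 3.98 ± 0.21 below ON at 48 h (edgeR adjusted p = 1.93e-11). Between 24 h and 48 h it fell by 4.93 ± 0.19 (edgeR adjusted p = 1.18e-12), the 3rd smallest p-value of all 10215 tested genes. Per 1000 counts on the other mitochondrial genes, ND6 had 2.87 ± 0.36 counts in ON (SD, n = 3), 5.84 ± 0.84 in OFF24 and 0.206 ± 0.107 in OFF48. The turn was thus also present relative to the heavy-strand messages of the same libraries. Rn7sk, a nuclear noncoding RNA that is not polyadenylated, was picked with its values known. It stood at 21.1 ± 3.6 CPM in ON (SD), then at 111 ± 24 at 24 h and 173 ± 23 at 48 h. Its level moved with the groups, in the same direction as ND6 at 24 h and in the opposite direction at 48 h, and its part in the ND6 values was not tested. Since the method targets 3' ends of polyadenylated RNA, changes in ND6 amount and in its tail or capture cannot be told apart.

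Of the other 6 mitochondrially encoded complex I subunits, 5 fell at 48 h. ND3 had 688, 727 and 696 CPM in ON, 456, 406 and 337 in OFF24, and 326, 306 and 380 in OFF48. It fell by 0.82 ± 0.11 at 24 h (edgeR adjusted p = 1.80e-05) and by 1.06 ± 0.11 at 48 h (edgeR adjusted p = 3.86e-07). All ON libraries lay above all OFF libraries. ND1 had 1338, 1547 and 1354 CPM in ON, 1163, 1007 and 948 in OFF24, and 766, 878 and 761 in OFF48. It stepped down at each time without overlap, by 0.44 ± 0.10 at 24 h and 0.82 ± 0.10 at 48 h. The step between the times (-0.38) lost its call without OFF24 replicate 1, OFF48 replicate 1 or OFF48 replicate 3. Its adjusted p reached 0.141 over the edgeR, DESeq2 and limma alternatives. ND5 had 180, 228 and 185 CPM in ON, 186, 171 and 176 in OFF24, and 82.9, 126 and 90.1 in OFF48. Its ON and OFF24 libraries overlapped, and OFF48 lay below both, with a fall of 1.02 ± 0.14 (edgeR adjusted p = 5.34e-06).

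The remaining mitochondrially encoded complex I genes varied more between libraries. ND4L had 53.3, 92.6 and 58.7 CPM in ON, 44.3, 45.8 and 46.2 in OFF24, and 13.1, 27.7 and 13.4 in OFF48. It fell by 2.08 ± 0.26 at 48 h (edgeR adjusted p = 1.54e-05). Its change of -0.59 at 24 h was called (edgeR adjusted p = 0.0461). That call was lost without ON replicate 2 or without any of the 3 OFF24 libraries. The adjusted p reached 0.247 over the edgeR, DESeq2 and limma alternatives. ND2 had 492, 753 and 589 CPM in ON, 523, 419 and 426 in OFF24, and 227, 427 and 234 in OFF48. Its fall of 1.07 ± 0.24 at 48 h was called, whereas the change of -0.43 ± 0.24 at 24 h was not. ND4 had 918, 1427 and 1006 CPM in ON, 875, 710 and 687 in OFF24, and 749, 1252 and 635 in OFF48, and passed the test in no comparison (edgeR adjusted p = 0.125, 0.294 and 0.627). ON replicate 2 and OFF48 replicate 2 were the highest of their groups in ND1, ND2, ND4, ND4L, ND5, CYTB, COX3, ATP6 and ATP8. This did not hold in both groups for COX1, COX2, ND3 and ND6. Both libraries also had the highest share of counts on mitochondrial genes in their groups (2.32% and 1.79%). OFF48 replicate 2 was also the library with the lowest total count.

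Cytochrome b, the electron-carrying core of complex III, is encoded by CYTB. It had 1789, 2025 and 1914 CPM in ON, 1884, 1382 and 1435 in OFF24, and 1304, 1591 and 1319 in OFF48. The OFF48 libraries all lay below ON, with a fall of 0.44 ± 0.12 (edgeR adjusted p = 0.00403), a call lost on the authors' log2 values with limma (adjusted p = 0.146). The change of -0.29 at 24 h was not called.

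Of the 3 mitochondrially encoded subunits of complex IV, 1 rose at 24 h, 1 fell at 48 h and 1 passed no test. COX1, the catalytic subunit that holds the oxygen-binding site, had 4163, 3946 and 4252 CPM in ON, 6063, 5318 and 5228 in OFF24, and 4106, 3647 and 4244 in OFF48. OFF24 stood above both other groups without overlap, and ON and OFF48 overlapped. COX1 rose by 0.43 ± 0.09 at 24 h (edgeR adjusted p = 0.00152), lay at -0.04 ± 0.09 from ON at 48 h (edgeR adjusted p = 0.735) and fell by 0.47 ± 0.09 between the times. On the authors' log2 values with limma, neither its rise nor this fall kept its call (adjusted p = 0.0512 and 0.142). COX2, which takes electrons from cytochrome c, had 3698, 3821 and 3495 CPM in ON, 3941, 3412 and 3305 in OFF24, and 2442, 2512 and 2722 in OFF48. It fell by 0.52 ± 0.09 at 48 h (edgeR adjusted p = 0.000141), and its ON and OFF24 libraries overlapped. Its fall of 0.47 between the times was not called on the authors' log2 values with limma (adjusted p = 0.164). COX3, the third core subunit, had 4575, 4770 and 4194 CPM in ON, 4393, 4444 and 3794 in OFF24, and 3707, 4384 and 4193 in OFF48, and passed the test in no comparison.

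ATP8 and ATP6 are overlapping genes for membrane subunits of ATP synthase. ATP8 had 54.8, 92.6 and 61.5 CPM in ON, 57.7, 67.5 and 65.8 in OFF24, and 20.1, 35.2 and 23.0 in OFF48. It fell by 1.51 ± 0.21 at 48 h (edgeR adjusted p = 2.81e-05) and by 1.37 ± 0.22 between the times. ATP6 had 2950, 3573 and 2681 CPM in ON, 2874, 2597 and 2319 in OFF24, and 2056, 2679 and 2032 in OFF48. Every OFF48 library of ATP8 lay below every other library, and in ATP6 OFF48 lay just below ON, with a fall of 0.45 ± 0.12 (edgeR adjusted p = 0.00660), a call lost on the authors' log2 values with limma (adjusted p = 0.183).

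**Figure D2:**
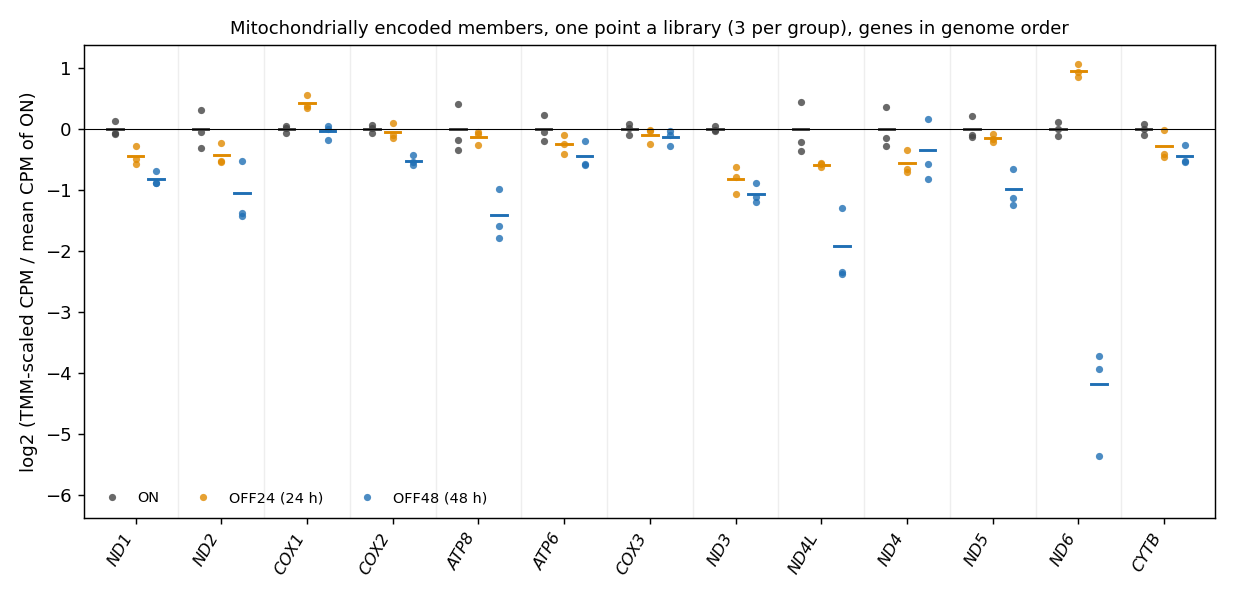
Level of each mitochondrially encoded member in each library, as log2 of its TMM-scaled CPM over the mean CPM of ON, in genome order with 3 points per group and a bar at the group mean. ND6 stands near 1 in OFF24 and near -4 in OFF48, COX1 is raised in OFF24 alone, and ND2, ND4L and ATP8 each have an OFF48 library above the other pair.

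Together the 13 mitochondrial genes took 2.16 ± 0.15% of all counts in ON (SD, n = 3), 2.03 ± 0.19% in OFF24 and 1.68 ± 0.12% in OFF48. The libraries of OFF48 spanned 1.56 to 1.79% and lay below all ON libraries, at 2.05 to 2.32%. Nuclear members took 1.57 ± 0.09%, 1.53 ± 0.04% and 1.33 ± 0.08%. The ratio of mitochondrial to nuclear member counts was 1.38 ± 0.18 in ON, 1.33 ± 0.10 in OFF24 and 1.27 ± 0.17 in OFF48, and these ranges overlapped. By complex, the summed CPM of mitochondrial complex I genes was 4172 ± 581, 2994 ± 327 and 2435 ± 506, while that of mitochondrial complex IV genes was 12305 ± 319, 13300 ± 1040 and 10653 ± 462.

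Of 36 tested nuclear complex I subunits, 4 rose (11.1%) and 5 fell (13.9%) at 24 h, both shares below those of all tested genes (17.8% and 17.4%). At 48 h 2 rose (5.56%), 13 fell (36.1%) and 21 had no call, beside 23.4% and 23.9% of all genes. Between the times 0 rose and 4 fell (11.1%), beside 9.99% and 11.2% of all genes. The 7 core subunits, which carry the flavin and the iron-sulfur clusters, had 0 calls at 24 h and 1 at 48 h. That was Ndufs1, which binds iron-sulfur clusters, with a fall of 0.84 ± 0.17 (edgeR adjusted p = 0.000358), while the other 6 core genes lay between -0.30 and 0.06 at 48 h. The calls at 24 h therefore all belonged to the 29 accessory subunits, which surround the core. Of these, 13.8% rose and 17.2% fell, beside 17.8% and 17.4% of all tested genes. Whether core and accessory subunits differed was not tested.

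Ndufab1, the mitochondrial acyl carrier protein that is also a complex I subunit, had 152, 135 and 144 CPM in ON, 92.4, 79.4 and 93.8 in OFF24, and 76.2, 60.7 and 72.6 in OFF48. It fell by 0.70 ± 0.11 at 24 h (edgeR adjusted p = 8.99e-05) and 1.02 ± 0.12 at 48 h (edgeR adjusted p = 7.46e-07). The groups were separate and ordered by time. Ndufa12, an accessory subunit of the peripheral arm, had 58.7, 66.6 and 55.5 CPM in ON, 30.1, 32.0 and 31.3 in OFF24, and 29.5, 35.2 and 30.0 in OFF48. It fell by 0.95 ± 0.13 at 24 h and 0.96 ± 0.13 at 48 h, so that the OFF groups overlapped each other and lay below ON. Ndufc2, a membrane arm subunit, had 174, 157 and 160 CPM in ON, 156, 138 and 144 in OFF24, and 108, 105 and 111 in OFF48. Its change of -0.17 at 24 h was not called, and it fell by 0.60 ± 0.10 at 48 h (edgeR adjusted p = 8.04e-05).

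Ndufv3, an accessory subunit of the NADH-oxidising module, turned direction. It had 110, 107 and 109 CPM in ON, 144, 139 and 136 in OFF24, and 75.5, 89.2 and 80.5 in OFF48. The 3 groups did not overlap, with OFF24 highest and OFF48 lowest. Ndufv3 rose by 0.36 ± 0.10 at 24 h (edgeR adjusted p = 0.00912) and fell by 0.43 ± 0.11 below ON at 48 h (edgeR adjusted p = 0.00256), a difference of -0.78 ± 0.11 between the times. Ndufv3 and ND6 were the members called higher at 24 h and lower at 48 h against ON.

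Among the other accessory subunits, Ndufb11, of the membrane arm, rose by 0.28 at 24 h and 0.46 at 48 h, and Ndufa1 rose by 0.36 and 0.46. The 24 h calls of both were lost when any ON library was left out, whereas their 48 h calls held under every alternative. At 24 h their adjusted p reached 0.233 and 0.139 over the edgeR, DESeq2 and limma alternatives. Ndufa6 rose by 0.41 at 24 h and lay at 0.12 with no call at 48 h. It lost the 24 h call without ON replicate 2 and on the authors' log2 values with limma. There the edgeR or limma adjusted p reached 0.0562. Falls at both times were called for Ndufb4 (0.44 and 0.66) and Ndufs6 (0.35 and 0.31), and Ndufs5 fell by 0.29 at 24 h with -0.24 and no call at 48 h. Falls called at 48 h and not at 24 h were those of Ndufb6 (0.63), Ndufc1 (0.62), Ndufb8 (0.57), Ndufb10 (0.40), Ndufa5 (0.37) and Ndufa10 (0.36). Of the falls just named, Ndufs5, Ndufa10, Ndufa5, Ndufb10 and the 48 h value of Ndufs6 lost their call in 2 to 4 of the 9 fits that left out a library, each time including ON replicate 3, and Ndufb4 at 24 h lost it without OFF24 replicate 2. The 24 h fall of Ndufs6 was not called on the authors' log2 values with limma (adjusted p = 0.0571). Ndufb4 has the same counts in every library as the rows of Gm3873 and Gm3244, so its reads cannot be assigned to it alone. The other 13 accessory genes passed no test and lay between -0.27 and 0.27 at 48 h.

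Complex I assembly factors are not part of the finished complex. Of 8 tested, 0 rose and 3 fell at 24 h, and 0 rose and 4 fell at 48 h. Falls were 37.5% and 50%, beside 17.4% and 23.9% of all tested genes, of which 17.8% and 23.4% rose. Ndufaf4 (chromosome 4, 24898083 to 24905001, plus strand) had 29.3, 38.3 and 22.9 CPM in ON, 6.69, 10.7 and 12.5 in OFF24, and 9.39, 6.0 and 8.75 in OFF48. All ON libraries lay above all OFF libraries. Ndufaf4 fell by 1.58 ± 0.23 at 24 h (edgeR adjusted p = 2.67e-05) and fell by 1.85 ± 0.24 at 48 h (edgeR adjusted p = 4.47e-06). Ndufaf6 had 9.95, 11.5 and 9.30 CPM in ON, 3.76, 4.71 and 2.38 in OFF24, and 5.70, 2.25 and 2.92 in OFF48, with falls of 1.52 ± 0.32 and 1.41 ± 0.32. Ndufaf5, a methyltransferase-like factor, had 4.08, 9.83 and 8.59 CPM in ON, 4.18, 5.65 and 4.77 in OFF24, and 3.69, 3.00 and 2.92 in OFF48. ON replicate 1 of Ndufaf5 lay below all OFF24 libraries while the other ON libraries lay above them, and the fall of 1.19 ± 0.37 at 48 h lost its call without ON replicate 2 or OFF48 replicate 3 (edgeR adjusted p up to 0.0793). Ndufaf8 had 93.6, 69.0 and 96.3 CPM in ON, 60.2, 67.8 and 69.7 in OFF24, and 73.5, 69.7 and 58.6 in OFF48. Its groups overlapped, and each of its falls, 0.38 and 0.36, lost its call in 5 of the 9 fits that left out a library, among them those without ON replicate 1, ON replicate 3, OFF24 replicate 2 or OFF24 replicate 3. Ndufaf1, Ndufaf2, Ndufaf3 and Ndufaf7 passed no test. Ndufa4, named for complex I and now known as a complex IV subunit, had 69.4, 50.4 and 74.4 CPM in ON, 62.7, 61.5 and 71.5 in OFF24, and 69.1, 51.0 and 85.1 in OFF48, and passed no test. Its paralogue Ndufa4l2, induced by hypoxia in other cells, was at 0 throughout.

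Of 4 complex II genes, 0 rose and 1 fell (25%) at each time. Of 8 tested nuclear complex III genes, 0 rose at either time, 1 fell at 24 h (12.5%) and 3 at 48 h (37.5%). Among all tested genes 17.8% rose and 17.4% fell at 24 h, and 23.4% and 23.9% at 48 h. Sdhb, the iron-sulfur subunit of complex II, had 72.4, 73.4 and 82.3 CPM in ON, 61.9, 66.2 and 55.1 in OFF24, and 67.1, 53.2 and 57.1 in OFF48. OFF libraries lay below ON in both comparisons, with falls of 0.31 ± 0.12 and 0.34 ± 0.12. Sdhb lost its 24 h call in 4 and its 48 h call in 3 of the 9 fits that left out a library. Both were lost without ON replicate 3, and the adjusted p reached 0.187 and 0.109 over the edgeR, DESeq2 and limma alternatives. Sdha, Sdhc and Sdhd passed no test. Uqcrq (chromosome 11, 53427922 to 53430831, minus strand), a small subunit of complex III, had 330, 330 and 316 CPM in ON, 181, 170 and 180 in OFF24, and 153, 143 and 150 in OFF48. The groups were separate with little spread inside each. Uqcrq fell by 0.88 ± 0.09 at 24 h (edgeR adjusted p = 8.01e-07) and 1.13 ± 0.10 at 48 h (edgeR adjusted p = 1.49e-08).

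Uqcrc2, a core protein of complex III, had 118, 127 and 134 CPM in ON, 143, 119 and 131 in OFF24, and 100, 75.7 and 94.8 in OFF48. It fell by 0.46 ± 0.12 at 48 h and not at 24 h, where the groups overlapped. Uqcr11, another small subunit, had 138, 107 and 147 CPM in ON, 115, 103 and 123 in OFF24, and 105, 79.5 and 107 in OFF48. Its fall of 0.40 ± 0.13 at 48 h came from groups that overlapped. The call was lost without ON replicate 1, ON replicate 3 or OFF48 replicate 2, and on the authors' log2 values with limma. There the edgeR or limma adjusted p reached 0.0925. The other 5 nuclear complex III members, among them the Rieske protein gene Uqcrfs1, passed no test and lay between -0.16 and 0.19 at 48 h. Cyc1, a complex III subunit outside the name rule, fell by 0.37 at 24 h (edgeR adjusted p = 0.0365). At 48 h Cyc1 was lower than ON by 0.53 (edgeR adjusted p = 0.00447).

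Nuclear complex IV genes had 12 tested members, of which 1 rose (8.33%) and 2 fell (16.7%) at 24 h. At 48 h 1 rose (8.33%) and 6 fell (50%), and between the times 0 rose and 3 fell (25%). Of all tested genes, 17.8% rose and 17.4% fell at 24 h, and 23.4% and 23.9% at 48 h. Between the times those shares were 9.99% and 11.2%. Cox7a2l (chromosome 17, 83501918 to 83517330, minus strand), a Cox7a relative known for joining complex III to complex IV in supercomplexes, was the member that rose. It had 342, 259 and 379 CPM in ON, 603, 538 and 538 in OFF24, and 615, 487 and 587 in OFF48. All OFF libraries lay above all ON libraries. The rise was 0.78 ± 0.13 at 24 h (edgeR adjusted p = 0.000105) and 0.79 ± 0.13 at 48 h (edgeR adjusted p = 4.32e-05), with 0.01 ± 0.13 between the times. Its paralogue Cox7a2 had 427, 450 and 424 CPM in ON, 324, 386 and 366 in OFF24, and 332, 336 and 331 in OFF48. Cox7a2 moved the other way, by -0.27 ± 0.10 and -0.38 ± 0.10, both called. The 24 h call of Cox7a2 was lost in 5 of the 9 fits that left out a library, each ON library among them. Its adjusted p reached 0.130 over the edgeR, DESeq2 and limma alternatives, and the 48 h call was lost in none of them. Cox7a1, the form typical of heart and skeletal muscle, had 5.87, 4.42 and 4.65 CPM in ON, 5.43, 7.85 and 8.94 in OFF24, and 4.36, 2.25 and 2.04 in OFF48. It passed no test against ON and fell by 1.33 ± 0.36 between the times, a call lost without OFF24 replicate 3 or OFF48 replicate 3 (edgeR adjusted p up to 0.0943).

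Cox5a, a nuclear subunit on the matrix side of complex IV, had 424, 414 and 429 CPM in ON, 359, 311 and 336 in OFF24, and 290, 244 and 300 in OFF48. It fell by 0.33 ± 0.10 at 24 h and by 0.60 ± 0.10 at 48 h (edgeR adjusted p = 8.61e-05 at 48 h). The 24 h call was lost without OFF24 replicate 2 and on the authors' log2 values with limma. There the edgeR or limma adjusted p reached 0.0871. The 3 groups did not overlap. Cox7b, a small membrane subunit, had 292, 271 and 312 CPM in ON, 298, 213 and 263 in OFF24, and 211, 163 and 162 in OFF48. It fell by 0.70 ± 0.13 at 48 h (edgeR adjusted p = 0.000191), and its ON and OFF24 libraries overlapped. Cox6a1 had 197, 218 and 196 CPM in ON, 164, 179 and 189 in OFF24, and 154, 168 and 155 in OFF48, with a fall of 0.36 ± 0.10 at 48 h. Cox8a had 416, 409 and 454 CPM in ON, 406, 391 and 414 in OFF24, and 338, 309 and 374 in OFF48. Its fall of 0.32 ± 0.10 at 48 h lost its call without ON replicate 3 and on the authors' log2 values with limma. There the edgeR or limma adjusted p reached 0.0728. Cox6a1 and Cox8a are the forms found in most tissues, and their muscle counterparts Cox6a2 and Cox8b had the few or 0 counts given above. Cox5b fell by 0.24 at 48 h, a call lost in 8 of the 9 fits that left out a library. Cox4i1 had 202, 207 and 203 CPM in ON, 206, 256 and 216 in OFF24, and 190, 204 and 225 in OFF48. Cox6b1 had 226, 182 and 248 CPM in ON, 262, 241 and 262 in OFF24, and 219, 195 and 250 in OFF48. Neither Cox4i1 nor Cox6b1 passed a test, and their groups overlapped in all 3 comparisons.

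**Figure D3:**
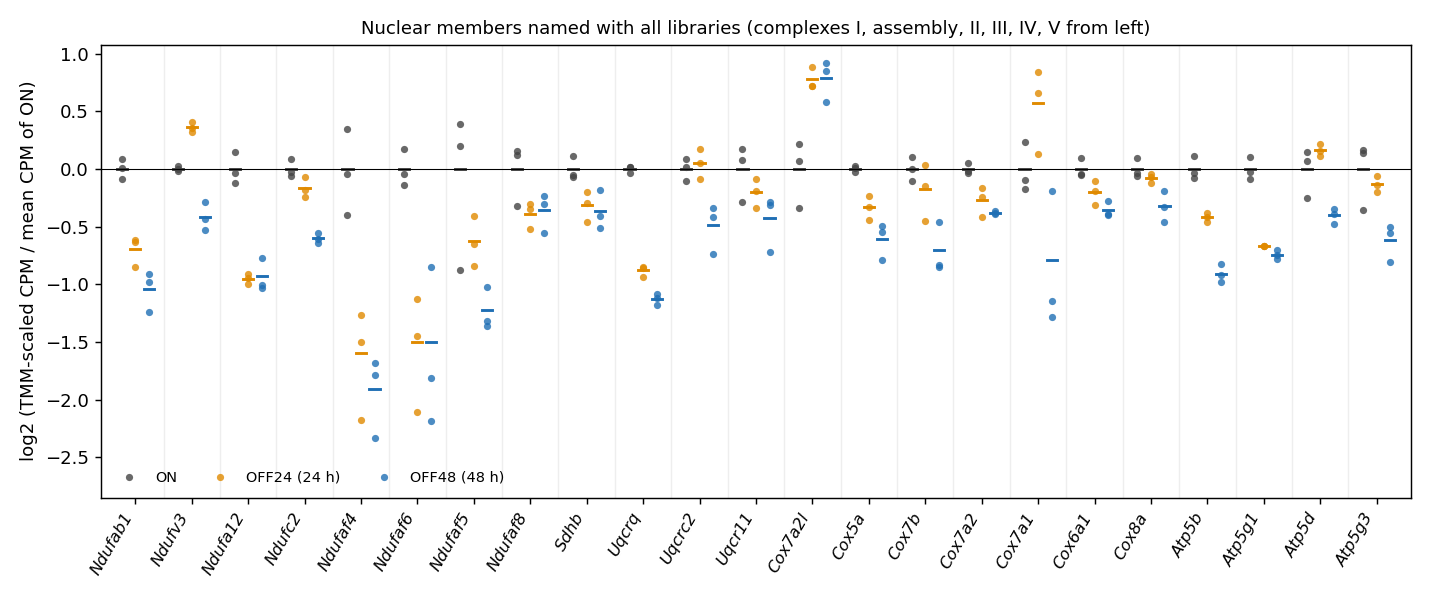
Levels in each library of nuclear members described with full values, as log2 of TMM-scaled CPM over the mean CPM of ON, from complex I at the left to ATP synthase at the right. Cox7a2l lies above 0 in every OFF library, Ndufv3 lies above 0 in OFF24 and below 0 in OFF48, and Ndufaf4, Uqcrq and Ndufa12 lie below 0 at both times.

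Nuclear ATP synthase genes fell mainly between 24 h and 48 h. Of 16 tested, 0 rose and 2 fell at 24 h, 0 rose and 9 fell at 48 h, and 0 rose and 7 fell between the times. Falls were 12.5%, 56.25% and 43.75%, beside 17.4%, 23.9% and 11.2% of all tested genes. Rises among all tested genes were 17.8%, 23.4% and 9.99%. The F1 head, where ATP is made, had 4 of 5 genes lower at 48 h. Atp5b, the catalytic beta subunit (chromosome 10, 128083273 to 128090391, plus strand), had 500, 451 and 438 CPM in ON, 347, 356 and 336 in OFF24, and 245, 235 and 261 in OFF48. The groups stepped down without overlap, by 0.42 ± 0.10 at 24 h (edgeR adjusted p = 0.00213) and 0.91 ± 0.10 at 48 h (edgeR adjusted p = 3.27e-07). Atp5d, the delta subunit, had 163, 130 and 172 CPM in ON, 173, 180 and 168 in OFF24, and 111, 118 and 122 in OFF48. It fell by 0.40 ± 0.11 below ON at 48 h, a call lost on the authors' log2 values with limma (adjusted p = 0.0508), and by 0.57 ± 0.11 from 24 h. The alpha subunit gene Atp5a1 fell by 0.53 ± 0.12 at 48 h with 0.03 at 24 h, and the gamma subunit gene Atp5c1 by 0.38 ± 0.10 with -0.08 at 24 h. Atp5e, the epsilon subunit gene, lay at -0.04 and 0.02 with no call.

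The c subunit, whose ring turns in the membrane, is made from 3 genes that encode the same mature protein. Atp5g1 had 146, 160 and 140 CPM in ON, 93.2, 93.2 and 93.5 in OFF24, and 86.2, 91.5 and 88.6 in OFF48. It fell by 0.67 ± 0.10 at 24 h (edgeR adjusted p = 4.08e-05) and 0.75 ± 0.10 at 48 h (edgeR adjusted p = 7.14e-06). Atp5g3 had 1051, 736 and 1034 CPM in ON, 900, 854 and 821 in OFF24, and 663, 538 and 639 in OFF48. It overlapped ON at 24 h and fell by 0.61 ± 0.12 at 48 h (edgeR adjusted p = 0.000434). Its fall of 0.48 between the times was not called on the authors' log2 values with limma (adjusted p = 0.116). Atp5g2 lay at 0.14 and 0.04 with no call. The 3 genes were thus called at both times, at 48 h, and at neither, respectively. In the peripheral stalk, which holds the head still, Atp5o fell by 0.39 ± 0.10 at 48 h, and Atp5f1, Atp5h and Atp5j passed no test. Of the small membrane subunits, Atp5k fell by 0.49 ± 0.12 and Atp5j2 by 0.31 ± 0.11 at 48 h. The Atp5j2 call was lost without ON replicate 1, ON replicate 3 or OFF48 replicate 2. Its adjusted p reached 0.132 over the edgeR, DESeq2 and limma alternatives. Atp5l lay at -0.25 with no call. Atp5s, or factor B, passed no test.

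**Figure D4:**
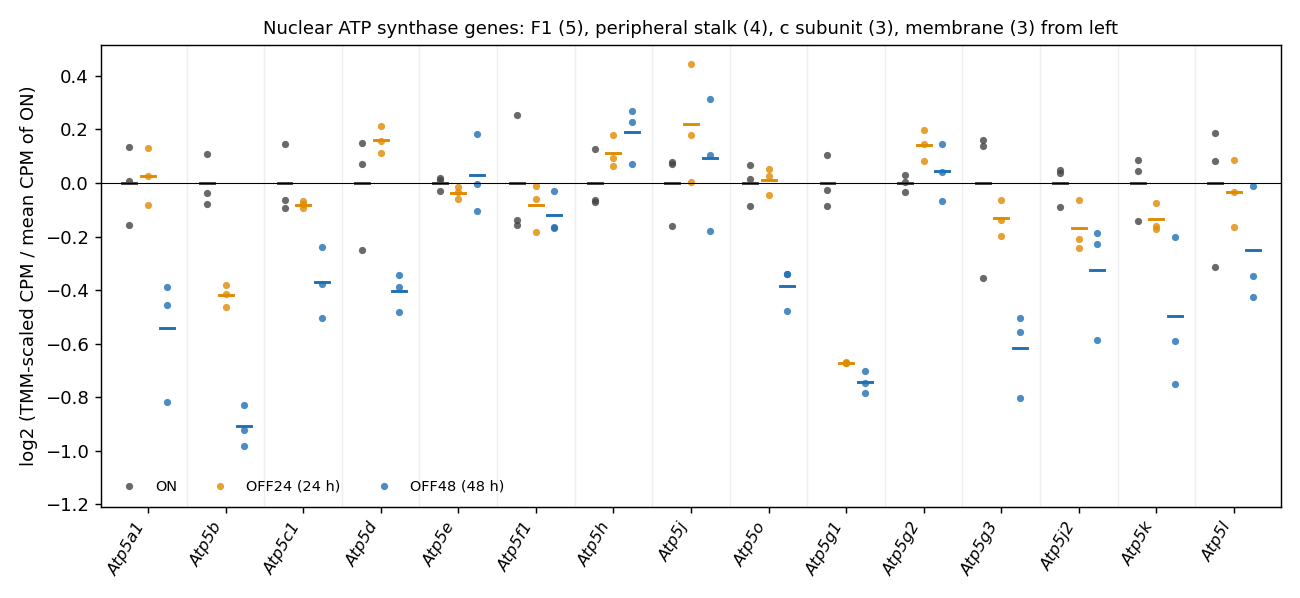
Levels in each library of 15 nuclear ATP synthase genes, as log2 of TMM-scaled CPM over the mean CPM of ON, grouped as F1 head, peripheral stalk, c subunit and membrane subunits from the left. Atp5b and Atp5g1 lie below 0 at both times, Atp5a1, Atp5d, Atp5o and Atp5g3 are low in OFF48, and Atp5e, Atp5h, Atp5j and Atp5g2 lie near 0.

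In the last 400 bases of their transcripts, 30 of the 98 tested members and 17 of the 53 members called in some comparison shared at least 100 bases at 95% identity or more with another annotated gene. Nuclear members with values above that do so are Atp5b, Atp5c1, Atp5g1, Atp5g2, Atp5k, Atp5l, Atp5o, Ndufa12, Ndufb8, Ndufb11, Ndufs5, Ndufs6 and Uqcr11, and their counts are uncertain to the extent that reads were split with or lost to these copies. Mitochondrially encoded ATP6, COX1, COX2, COX3, ND2, ND3 and ND4L share such stretches as well. ND6, ND1, ND5, Ndufaf4, Ndufv3, Ndufab1, Uqcrq and Cox7a2l do not.

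Genes that carry electrons or metabolites or build the complexes, without being members, were counted in a list of 60. Of 59 tested, 5 rose and 17 fell at 24 h, and 5 rose and 24 fell at 48 h. Falls made up 28.8% and 40.7%, beside 17.4% and 23.9% of all tested genes, and rises 8.47% at each time, beside 17.8% and 23.4%. Higd1a, a small inner-membrane protein that binds complex IV, had 355 ± 22 CPM in ON (SD, n = 3), 256 ± 2 in OFF24 and 98.4 ± 12 in OFF48, and Higd1a fell by 0.47 at 24 h and fell by 1.85 ± 0.11 (SE) at 48 h (edgeR adjusted p = 1.37e-10). Cycs, which encodes cytochrome c, had 273 ± 24, 118 ± 9 and 119 ± 8 CPM, and fell by 1.21 ± 0.11 at both times. Chchd4, the import receptor that oxidises proteins between the membranes, fell by 1.07 and 1.27. Slc25a5, an ADP/ATP carrier, lay at -0.21 with no call at 24 h and fell by 0.90 at 48 h. Between the times Higd1a fell by 1.39 and Slc25a5 by 0.69, both called, while Cycs passed no test (edgeR adjusted p = 0.988).

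A list of 35 genes of mitochondrial DNA copying, transcription, RNA processing and their nuclear regulators had 32 tested genes, of which 2 rose and 6 fell at 24 h, and 3 rose and 8 fell at 48 h. The falls, at 18.8% and 25%, were close to the 17.4% and 23.9% of all tested genes, and the rises, at 6.25% and 9.38%, lay below the 17.8% and 23.4%. Polg, the mitochondrial DNA polymerase, rose by 0.46 and 0.73. Pprc1, a coactivator of nuclear genes for mitochondrial proteins, fell by 1.22 and 1.47, from 11.5 CPM in ON to 4.83 and 3.88. Tbrg4, a mitochondrial RNA-binding protein of the FASTK family, fell by 0.62 and 0.42. Slirp, which with Lrpprc stabilises heavy-strand messages, fell by 1.10 at 48 h, with -0.20 and no call at 24 h.

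Promoters of 76 of the 92 nuclear members were present in the RefSeq table used here (GRCm38.p6, 250 bases before to 50 after the start). They were searched on both strands for 5 motifs. The NRF1-type motif, a GC-rich palindrome with a free base in the middle, stood in 19 members (25%), beside 7.2% of 17492 protein-coding genes. The YY1-type motif AAGATGGCG stood in 8 (10.5%, beside 2.1%) and the ETS-type motif CCGGAAG in 18 (23.7%, beside 12.9%). The E-box CACGTG stood in 6 (7.9%, beside 8.9%), and the C/EBP-ATF motif TGATGNAAT in 0 (beside 0.9%). CCGGAAG and AAGATGGCG can share the letters AAG where they meet, and such a stretch counts for both. Of 31 members with a promoter that fell at 48 h, 10 had the NRF1-type motif (32.3%), and of 39 with no call 9 had it (23.1%). The ETS-type motif stood in 7 of those 31 (22.6%) and in 11 of those 39 (28.2%). None of the 3 members that rose at 48 h had any of the 5 motifs. A match is a description of these letters and not of binding, and whether the shares differ was not tested.

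The promoters of Ndufaf4, which fell at both times, of Ndufs6, which fell at both times, and of Cox7a2l, which rose, are shown 5' to 3' as examples with 1, 2 and 0 motifs, with capitals marking the NRF1-type motif and AAGATGGCG.
Ndufaf4, chr4:24897833-24898132, plus strand: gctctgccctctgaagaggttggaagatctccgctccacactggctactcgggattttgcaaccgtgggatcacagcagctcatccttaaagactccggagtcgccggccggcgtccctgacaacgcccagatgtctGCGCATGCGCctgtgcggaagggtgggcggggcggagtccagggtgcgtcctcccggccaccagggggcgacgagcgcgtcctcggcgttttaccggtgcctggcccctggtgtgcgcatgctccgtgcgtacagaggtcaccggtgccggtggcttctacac
Ndufs6, chr13:73328433-73328732, minus strand: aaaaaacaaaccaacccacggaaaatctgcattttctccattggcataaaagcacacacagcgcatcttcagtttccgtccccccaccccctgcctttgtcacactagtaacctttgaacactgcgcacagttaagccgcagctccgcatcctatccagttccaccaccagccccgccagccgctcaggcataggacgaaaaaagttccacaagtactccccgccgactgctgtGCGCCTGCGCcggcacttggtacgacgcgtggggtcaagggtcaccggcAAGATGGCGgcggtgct
Cox7a2l, chr17:83514284-83514583, minus strand: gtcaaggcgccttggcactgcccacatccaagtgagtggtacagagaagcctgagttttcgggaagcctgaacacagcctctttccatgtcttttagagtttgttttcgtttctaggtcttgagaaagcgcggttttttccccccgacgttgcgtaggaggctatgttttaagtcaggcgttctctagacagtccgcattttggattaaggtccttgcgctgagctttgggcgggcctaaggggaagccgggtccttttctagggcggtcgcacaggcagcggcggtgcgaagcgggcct
In Ndufaf4 and Ndufs6 the NRF1-type letters lie before the start, and in Ndufs6 the YY1-type letters lie close after it. Cox7a2l holds none of the 5 motifs in this window.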

How the data were processed

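The 9 libraries (3 per group) were grouped by their GEO titles. The authors deposited whole-number counts per gene and a table of normalised log2 expression values. Per the submitters' processing notes, the tools include cutadapt 1.5, HISAT2 2.0.4, featureCounts of Subread 1.5.0-p3 and limma 3.42.2, with build mm10. For annotation and strand setting the sources used here give nothing. On the deposited counts, edgeR 4.0.16 was run under R 4.3.3 (filterByExpr, TMM, robust quasi-likelihood fit of all 9 libraries, Benjamini-Hochberg adjustment over 10215 genes, threshold 0.05). The deposited log2 values served in an alternative with limma 3.58.1. DESeq2 1.42.0, limma-voom, other scalings, filters and left-out libraries were further alternatives. Levels are TMM-scaled CPM, and 1 count equals 0.246 to 0.750 CPM. The fit was tested on simulated counts. Positions and 3' ends come from GENCODE M21 on GRCm38, which mm10 denotes, with blastn 2.17.0 for shared ends.

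Genes with values in every library are the mitochondrially encoded members, up to 4 called members with the smallest p in each nuclear group, and isoform pairs. Every other called member is given with its log2 change. The members and gene lists were chosen with earlier results of these data known. No pair of replicates agreed within sampling noise (chi-square over degrees of freedom from 1.99 to 6.99), and floors of 3 counts cover counting error only. With no paired origin in the labels, the replicate number was not used as a block.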

Additional observations from a re-analysis of the deposited data

Results flagged for a closer look

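The effect at 48 h differed from the effect at 24 h for 22 of 98 tested members (22.4%). Of all tested genes, 21.1% were called in that comparison, 9.99% up and 11.2% down. Since both share the ON libraries, the test of this difference is OFF48 against OFF24 (edgeR adjusted p under 0.05), and every difference was negative. Values are the log2 change at 48 h minus that at 24 h.

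Mitochondrially encoded members were ND6 (-4.93), ND4L (-1.48), ATP8 (-1.37), ND5 (-0.87), COX1 (-0.47), COX2 (-0.47) and ND1 (-0.38). ND6 and COX1 were the ones called higher at 24 h against ON.

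In complex I the nuclear members were Ndufv3 (-0.78), which had been called higher at 24 h, Ndufc1 (-0.48), Ndufc2 (-0.43) and Ndufb8 (-0.38). In complex III it was Uqcrc2 (-0.51), and in complex IV Cox7a1 (-1.33), Cox7b (-0.52) and Cox5b (-0.31). In ATP synthase these were Atp5d (-0.57), Atp5a1 (-0.56), Atp5b (-0.49), Atp5g3 (-0.48), Atp5o (-0.40), Atp5k (-0.35) and Atp5c1 (-0.30). Of all 22, 8 lost this call when a library was left out. Atp5c1, Atp5k and Cox5b each lost it in 7 of 9 such fits, including those without any single OFF24 library. Ndufc1 lost it without OFF24 replicate 1, OFF48 replicate 2 or OFF48 replicate 3, and ND1 without OFF24 replicate 1, OFF48 replicate 1 or OFF48 replicate 3. Cox7a1 lost it without OFF24 replicate 3 or OFF48 replicate 3, Cox7b without OFF24 replicate 1, and Ndufb8 without OFF24 replicate 3. On the authors' log2 values with limma, 8 of the 22 were not called, among them COX1, COX2, ND1 and Atp5g3. Groups of 3 libraries were not examined for outliers.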

How the results depend on the processing

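Of 95 called values of members, 58 kept their call and sign under all 10 alternative settings and all 9 fits leaving out a library, 37 lost the call under at least 1, and none reversed. ND6 kept all its calls, with log2 changes of 0.87 to 1.00 at 24 h and -4.23 to -3.80 at 48 h. With the authors' log2 values in limma, 3 members rose and 9 fell at 24 h (main 7 and 17), 14 fell between the times (main 22), and the median of mitochondrially encoded members between the times was -0.29 (main -0.47). The cause was not tested. Upper quartile scaling moved the share of rises among all calls at 24 h from 50.6% to 56.4%, and between the times from 47.2% to 39.9%.

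Leaving out a library gave 4 to 7 rises and 12 to 22 falls at 24 h, 3 to 5 rises and 36 to 48 falls at 48 h, and 0 rises and 16 to 25 falls between the times. The lowest count of rises at 24 h (4) came without ON replicate 2, and the highest at 48 h (5) without OFF48 replicate 2. A fit with the replicate number as a block gave 12 rises at 24 h, including all 7 of the main fit. Same-numbered libraries correlated between -0.01 and 0.41, over 0.1 in 5 of 9 pairs, and 5 of 9 pairs were best with their own number. Replicate 2 was best with its own number in every pair of groups (r = 0.20, 0.41 and 0.18). With the block, 0 of 159 values of called members lost a call and 9 gained one. Whether the numbers pair the groups is not in the labels, and the main fit did not use them. ND6 in OFF48 rests on 2 to 16 counts, and depth limits members of few CPM, such as Ndufaf5, Ndufaf6 and Cox7a1.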
